A study of Saccharomyces cerevisiae with 18 samples.

Results

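The cytosolic ribosomal protein genes of budding yeast were taken as all genes named *RPL* or *RPS* with a number and, for a duplicated gene, a last A or B. The rule found 132 genes among the 7126 gene IDs of the expression tables, 76 for the large subunit (*RPL*) and 56 for the small subunit (*RPS*). They form 57 pairs of A and B copies and 18 single-copy genes, and 88 of them carry an intron. All 132 passed the filter on low values.

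A ribosome holds each of these proteins in equal number, and their mRNAs are among the most abundant of a growing yeast cell. Many of the genes remained in pairs after an ancient duplication of the yeast genome, and the copies of a pair encode identical or nearly identical proteins. The genes are known to be controlled together with growth. The activators Rap1, Fhl1, Ifh1 and Sfp1 act at their promoters, and the kinase Sch9 links them to nutrient signalling. α-Pheromone is the peptide by which *MAT*α cells make *MAT***a** cells stop dividing and prepare for mating.

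RNA was sequenced 60 min after α-pheromone was added to growing *MAT***a** cells, in 2 experiments of 9 libraries each. Experiment 1 used 0, 1, 5, 10, 15, 20, 50, 100 and 500 nM. Experiment 2 used 0, 0.05, 0.25, 1, 5, 10, 20, 50 and 500 nM. There was 1 library per dose and experiment, and 7 doses were shared. Every library, mock-treated ones included, came from strain yAA95. It lacks the pheromone protease gene (bar1delta, marked with kanMX6) and both α-pheromone genes (mfalpha1delta, marked with SpHIS3, and mfalpha2delta, marked with hphNT1). It also lacks arg4 (klTRP1 marker) and carries at ura3 a reporter in which the *FUS1* promoter drives Ubi(I)-sfGFP. Its parent line, SEY6210a, is described as lacking functional Kss1. The comparisons concern this strain only. Values are RPKM, the reads on a gene scaled to its length and to the mapped reads of the library. Per the paper's methods, pheromone treatment began by moving aliquots of a growing culture into separate flasks. Libraries of an experiment are thus not independent cultures. The p-values measure the spread between these libraries, not that between independent cultures. In such bulk samples, fewer cells of a type and less RNA per cell cannot be told apart, and RPKM shows only a gene's part of the sequenced RNA.

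Libraries held 4869998 to 12340000 mapped reads in experiment 1 and 9720010 to 16659981 in experiment 2, the 500 nM library of experiment 1 being the smallest. The lowest count of any ribosomal protein gene in any library was 74 reads. The *MAT***a** markers *STE2*, *MFA1*, *MFA2*, *AGA2* and *STE6* lay between 135 and 2284 RPKM in all libraries. The *MAT*α marker *STE3* reached at most 4.20 RPKM and *SAG1* 24.0 RPKM, and the deleted α-pheromone genes reached at most 0.271 RPKM.

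The ribosomal protein genes took 8.92 to 12.1% of all mapped reads, and their share was lowest at 500 nM in both experiments. In experiment 1 the share was 10.3, 10.2, 10.9, 10.6, 10.3, 9.94, 10.8, 9.73 and 8.92% from 0 to 500 nM. In experiment 2 it was 12.1, 11.2, 10.9, 10.7, 11.9, 11.8, 11.4, 11.3 and 9.58% from 0 to 500 nM. The 500 nM libraries thus lay 13.7% (experiment 1) and 20.7% (experiment 2) below the mock-treated library of their own experiment. Below 500 nM the share moved within 9.73 to 10.9% in experiment 1 and within 10.7 to 12.1% in experiment 2, with no steady course over dose. Experiment 2 had the higher share at all 7 shared doses. The share is given as a description, since no test was made of a sum over chosen genes.

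**Figure D1:**
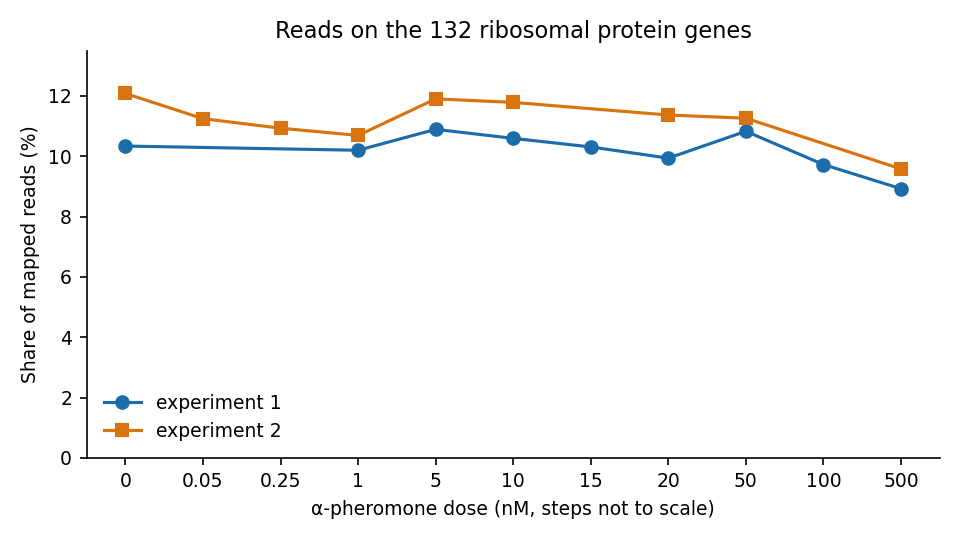
Share of all mapped reads (%) on the 132 cytosolic ribosomal protein genes against α-pheromone dose (nM), 1 point per library, with a line for each experiment. The 500 nM points, at 8.92 and 9.58%, are the lowest of their experiments.

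Single genes of the family differed widely in RPKM. The median over the 132 genes was 883 RPKM, against 31.9 RPKM over 6007 protein-coding genes, and 59 of the 100 protein-coding genes with the highest mean RPKM were ribosomal protein genes. *RPS31*, which encodes ubiquitin fused to a small-subunit protein, was highest (mean 5614 RPKM, 4540 to 6705 over the libraries). It was followed by *RPS12*, of the small subunit (4325 RPKM), *RPL10*, whose protein joins the large subunit late (3887 RPKM), and *RPL3*, of the peptidyl transferase region (3828 RPKM). All 4 are single-copy genes without an intron. The lowest were *RPL40B* (17.3 RPKM, 9.69 to 33.9), *RPL15B* (43.8 RPKM), *RPL7B* (73.5 RPKM), *RPL35B* (80.7 RPKM) and *RPL22B* (82.7 RPKM), all of them the weaker copy of a pair.

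Part of this range came from how RPKM was made. Reads had been divided by the whole gene, introns included. Multiplied back by that length, the values of genes with an intron came out as whole reads (within 0.1 read) in 98.4 to 99.5% of cases, against 25.9 to 34.5% with the coding length. Intron-carrying members had a median of 764 RPKM and members without an intron 2034 RPKM. Per kilobase of coding sequence the medians were 1588 and 2030 on the same scale. Reads that fit several places were a further part. Of 93 genes in which no 50-base window is unique in the genome, 89 stood at 0 in all 18 libraries, and 16 ribosomal protein genes had unique windows over less than 50% of their coding sequence.

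The *RPL41* pair shows how little can separate both copies. *RPL41* encodes the smallest protein of the ribosome, and the coding sequences of its copies (R64 build, 78 bases) differ at 1 base, so that 31.0% of their 50-base windows are unique. The sequences, from RefSeq, are shown with the differing base in capitals.
RPL41A (chrIV:130407-130484, minus strand): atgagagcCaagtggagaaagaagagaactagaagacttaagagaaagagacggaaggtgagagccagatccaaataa
RPL41B (chrIV:221724-221801, minus strand): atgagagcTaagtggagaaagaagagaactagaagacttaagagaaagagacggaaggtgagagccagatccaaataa

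Counted per unique 50-base window of coding sequence, the mRNA levels for the different ribosomal proteins drew together. No protein was measured. On this scale all reads of a gene, those on introns included, were divided by its number of unique coding windows. In *RPL42A*, 83.4% of windows are unique over the whole gene and 51.5% in coding sequence. A and B copies were added for each of the 57 duplicated proteins. These sums had a median of 4139 (quartiles 3439 and 4906), against 3996 (3212 and 4167) for the 18 single-copy genes. In plain RPKM the medians were 1679 for the sums of A and B and 3092 for the single-copy genes. Without *RPL41*, the highest mRNA level for the other 74 proteins was 2.40 times the lowest per unique window. These levels ran from 2717 for *RPL14* to 6513 for *RPL42*. In plain RPKM the same ratio was 23.2. *RPL41* stood apart at 21871 per unique window. It offers 9 such windows per copy, and the way reads across gene ends were counted is not given in the sources used here.

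**Figure D2:**
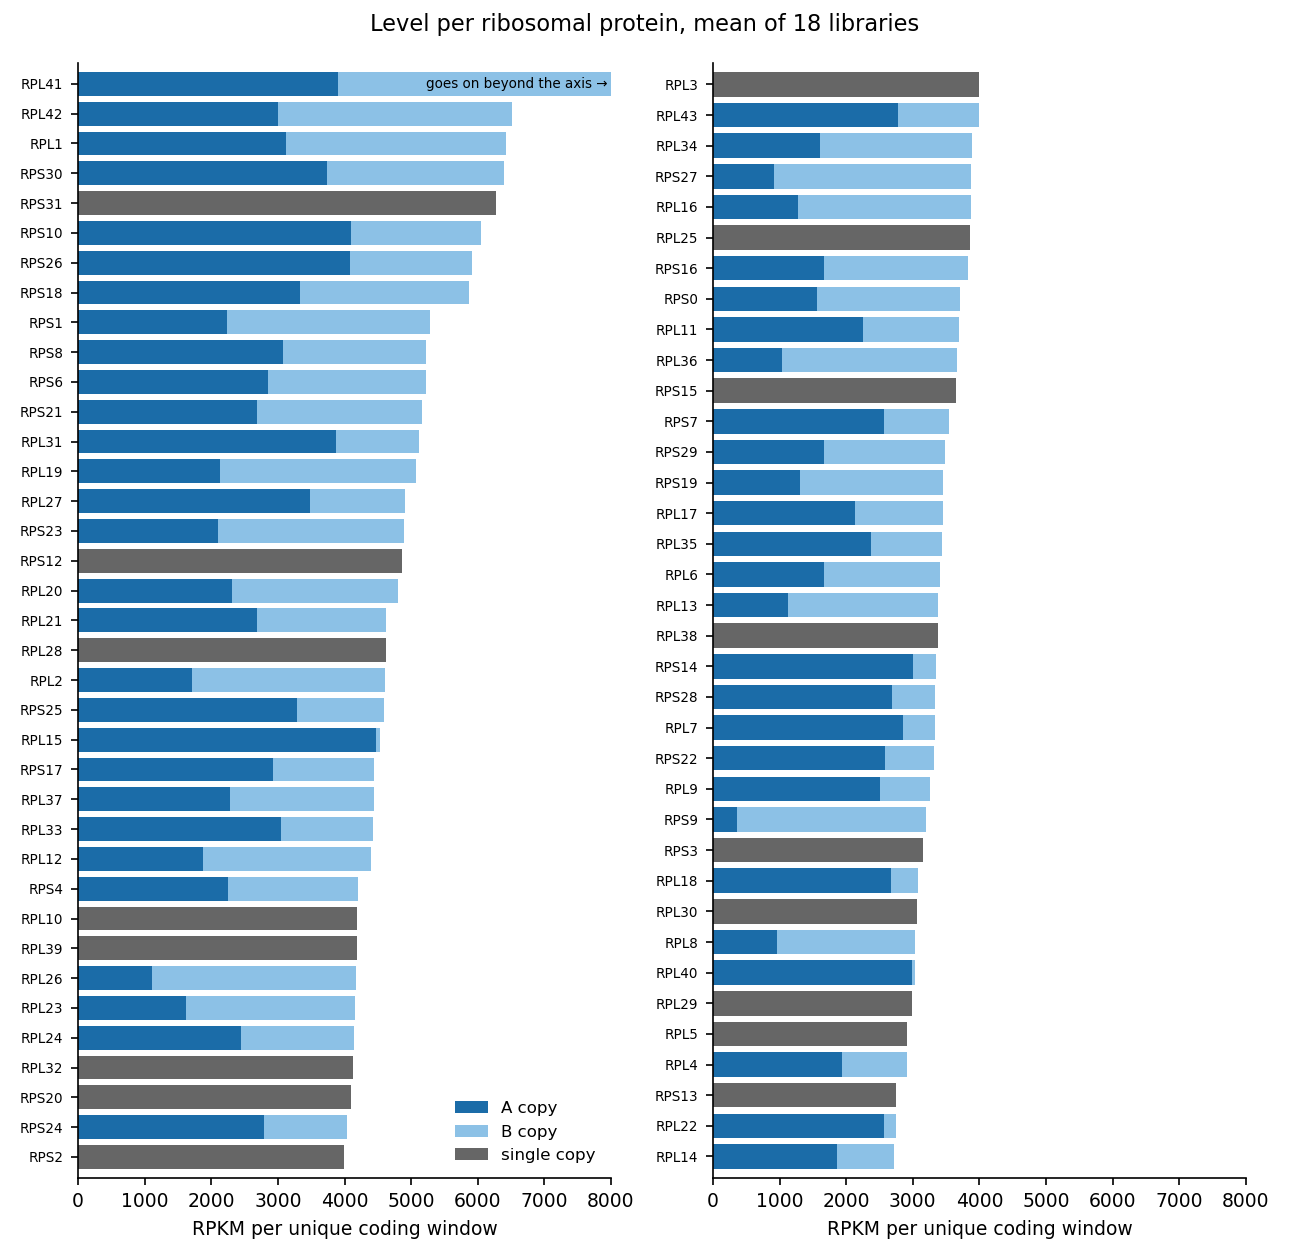
Mean mRNA level over the 18 libraries for 73 ribosomal proteins, as RPKM per unique 50-base coding window. A and B copies are stacked and single-copy genes grey, with the higher levels in the left panel. Apart from *RPL41*, whose bar goes on to 21871 beyond the axis, sums of A and B and single-copy genes share the range from 2717 to 6513.

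Within pairs, the same copy was the higher in all 18 libraries for 54 of the 57 pairs, the A copy in 33 and the B copy in 21. *RPL1*, *RPL37* and *RPS29* were the exceptions, with mean log2 ratios of A to B of −0.07, 0.14 and −0.13. The median size of the log2 ratio was 0.79, and 10 pairs differed at least 4-fold. These are ratios of RPKM within a library and do not depend on its scaling. Counted per unique window, no pair changed its order.

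The most unequal pairs were *RPL15*, *RPL40*, *RPL22*, *RPS14*, *RPS22* and *RPS9*. *RPL15A* exceeded *RPL15B* 83.4-fold in RPKM (log2 ratios from 6.03 to 6.62), although neither has an intron and both have 88.2% unique windows. *RPL40A* exceeded *RPL40B* 61.2-fold (4.99 to 6.66); both encode ubiquitin fused to a large-subunit protein. *RPL22A* exceeded *RPL22B* 12.6-fold, and *RPS14A* exceeded *RPS14B* 9.91-fold. *RPS9* was the pair of this group in which the B copy was higher, 8.63-fold. *RPS22A* exceeded *RPS22B* 9.18-fold in RPKM but 3.52-fold per unique window. RPKM divides the reads of *RPS22B* by a gene length that includes its intron, and both values count the reads of a small nucleolar RNA, *SNR44*, that lies in this intron. With these reads subtracted, in an alternative added after the data had been seen, the values were 16.4-fold and 6.26-fold.

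With pheromone, the change of these genes was small up to 50 nM and general at 500 nM. At 500 nM 106 of the 132 genes were lower than at 0 nM and none was higher, at an adjusted p under 0.05 (limma, Benjamini-Hochberg over 5995 genes). Over all genes tested at 500 nM, 36.9% were lower and 22.5% higher. The median log2 change was −0.26 over the ribosomal protein genes and −0.11 over all genes tested. No ribosomal protein gene was called with a change of at least 2-fold at 20, 50 or 500 nM, where 2.8, 5.72 and 7.11% of all genes were lower and 1.77, 2.2 and 5.42% higher by that rule. The middle 50% of the members lay between −0.35 and −0.20, against −0.42 and 0.22 for the 5544 protein-coding genes tested.

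In experiment 1, 123 of the 132 genes were lower at 500 nM than at 0 nM, and in experiment 2, 131 were. The same share over all genes tested was 56.1% in experiment 1 and 61% in experiment 2. In both experiments 123 members were lower, as were 50.6% of all genes. At 500 nM, 111 genes in experiment 1 and 109 in experiment 2 had the lowest of their 9 values (23.1% and 31% of all genes tested). The count of 106 depends on single libraries and was smaller without the mock-treated library of experiment 2 or without either 500 nM library. The median log2 change of the family was −0.21 without that mock-treated library. It was −0.28 and −0.25 without the 500 nM library of experiment 1 and of experiment 2. The count was 83 with libraries centred on their median and 48 without the experiment as a block, where 32.6 and 27.8% of all genes were lower. No member was higher in any of these fits.

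**Figure D3:**
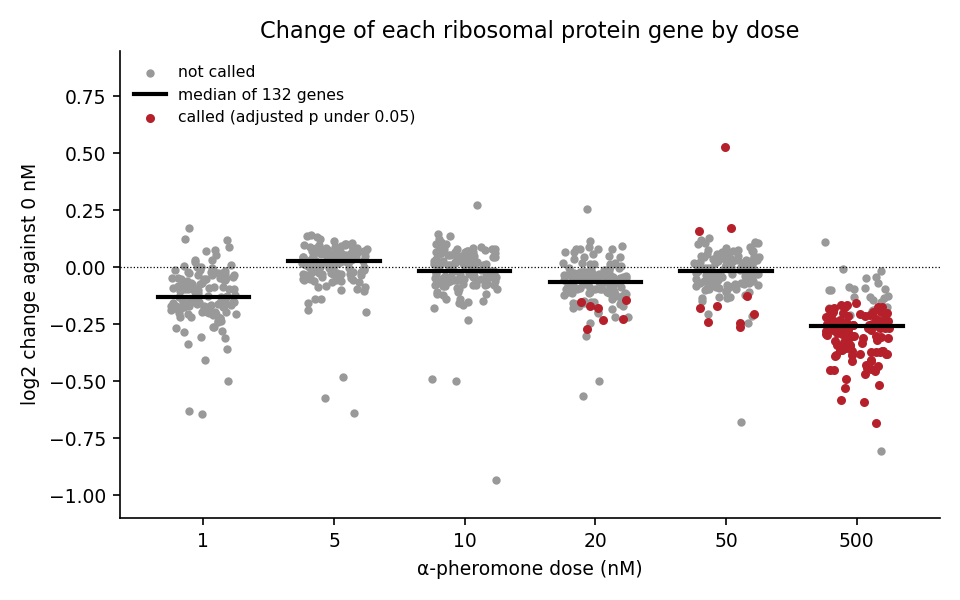
log2 change of each of the 132 ribosomal protein genes against 0 nM at the 6 pheromone doses used in both experiments, with genes called at an adjusted p under 0.05 in red and the median as a bar. At 500 nM 106 genes are red, all below 0, and the median is −0.26.

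Subgroups of the family had close medians at 500 nM. Of the large-subunit genes 62 of 76 were lower (median log2 change −0.26), and of the small-subunit genes 44 of 56 (−0.27). Of genes with an intron 75 of 88 were lower (−0.26), and of those without 31 of 44 (−0.26). Of the single-copy genes 17 of 18 were lower (−0.32), and of the A and B copies 89 of 114 (−0.26). *RPS15*, of the small subunit's head, was the single-copy gene that was not called (−0.07, standard error 0.06).

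The 7 largest falls called at 500 nM, named after their values were seen, included 4 weaker copies of pairs, *RPL35B*, *RPL18B*, *RPS26B* and *RPL36A*. The others were *RPL1B* and *RPL9A*, stronger copies of their pairs, and the single-copy *RPS12*. Of the 132 members, 57 are the weaker copy of a pair. *RPL35B* had 47.4 and 66.3 RPKM at 500 nM in experiments 1 and 2, against 76.3 and 107.5 RPKM at 0 nM (log2 change −0.68, standard error 0.09, limma adjusted p = 9.5e-05). Its coding sequence has 18.6% unique windows, so few of its reads could be placed. *RPL18B*, of the large subunit, had 117.6 and 123.3 RPKM against 161.2 and 205.3 RPKM (−0.59 ± 0.07, SE). *RPS26B*, of the small subunit, had 1268 and 1166 RPKM against 1817 and 1831 RPKM (−0.58 ± 0.06, SE). *RPL36A* changed by −0.53, *RPL1B* by −0.52 and *RPL9A* by −0.49. *RPL1B* stood at 798 RPKM in the 0 nM library of experiment 2, against 621 and 622 RPKM at 0.05 and 0.25 nM there, and without that 0 nM library its change was −0.34. In each of these genes both 500 nM libraries lay below both mock-treated libraries. *RPS12*, a single-copy gene, had 3016 and 3985 RPKM against 3963 and 5797 RPKM (−0.47 ± 0.07, SE), and here the ranges overlapped across experiments.

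The abundant genes *RPS31*, *RPS12*, *RPL10* and *RPL3* were all lower at 500 nM. *RPS31* had 4540 and 5022 RPKM at 500 nM, against 5499 and 6705 RPKM at 0 nM (log2 change −0.35, standard error 0.07, limma adjusted p = 0.00203). *RPL3* changed by −0.38 and *RPL10* by −0.21. Of the ubiquitin fusions, *RPL40A* had 913 and 978 RPKM at 500 nM, against 953 and 1077 RPKM at 0 nM (−0.10 ± 0.05, SE; limma adjusted p = 0.136). The reporter holds a ubiquitin part driven by *FUS1*, whose promoter pheromone activates, and whether its reads were placed on these genes was not tested.

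*RPS28B* stood out as the only member above 0 at 500 nM (0.11, standard error 0.13, limma adjusted p = 0.493). At 50 nM it had 567.8 and 675.1 RPKM in experiments 1 and 2, against 363.5 and 505.5 RPKM at 0 nM. That log2 change of 0.53 (standard error 0.13, limma adjusted p = 0.00942) was the largest rise of the family at that dose. Its partner *RPS28A* had 1580 and 1889 RPKM at 500 nM, against 1850 and 2426 RPKM at 0 nM (−0.29 ± 0.08, SE; limma adjusted p = 0.0117). In experiment 1 *RPS28B* had 363.5, 359.3, 426.2, 461.0, 416.1, 377.7, 567.8, 503.4 and 414.7 RPKM from 0 to 500 nM. In experiment 2 it had 505.5, 438.5, 532.1, 549.9, 510.9, 583.8, 693.0, 675.1 and 518.0 RPKM from 0 to 500 nM. Its highest level was thus at 50 nM in experiment 1 and at 20 nM in experiment 2, and at 500 nM it was lower than at those doses.

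The 26 members not called at 500 nM were 25 copies of pairs and *RPS15*. Both copies of *RPL4*, *RPL6*, *RPL40*, *RPL41* and *RPS29* were among them. 7 of the 26 have under 80% unique windows, and *RPL41A*, *RPL41B* and *RPL40B* had the largest standard errors of the family, 0.30, 0.34 and 0.32 on the log2 scale. *RPL15B* (−0.01), *RPL41A* (−0.02), *RPL8A* (−0.04) and *RPL19A* (−0.05) were also near 0 at 500 nM.

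Below 500 nM few genes passed the test. At 1, 5 and 10 nM no ribosomal protein gene was called in limma, where 0.0834, 1.67 and 11.6% of all genes were lower and 0.417, 1.37 and 5.55% higher. At an unadjusted p under 0.05 there were 52, 3 and 7 members at these doses (39.4, 2.27 and 5.3%), against 19.3, 16 and 32% of all genes. At 1 nM 119 of the 132 genes lay below 0, with a median of −0.13, while the median over all genes was 0.00. At 5 nM the median of the family was 0.03. Leaving out the mock-treated library of experiment 1 gave 17, 1 and 5 lower members at 1, 5 and 10 nM, where 2.57, 1.89 and 11.3% of all genes were lower, and leaving out either 500 nM library gave 1 at 10 nM, where 10.7% of all genes were lower.

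At 20 nM 7 genes were lower and none higher, where 18.4% of all genes tested were lower and 7.31% higher. They were *RPS12*, *RPL18B*, *RPL36A*, *RPL16A*, *RPS14B*, *RPL12A* and *RPL7A*, with log2 changes from −0.27 to −0.14. At 50 nM 7 genes were lower and 3 higher, where 33.1% of all genes tested were lower and 10.6% higher. The 7 were *RPL18B*, *RPS9A*, *RPS22B*, *RPS14B*, *RPS26B*, *RPL36A* and *RPL16A*, from −0.26 to −0.13. The 3 that rose were *RPS28B* (0.53), *RPL19A* (0.17) and *RPS10B* (0.16). The split at 50 nM turned with the scaling. The median of all genes tested stood at −0.13 there, and with libraries centred on their median none of the family was lower and 43 were higher, where 20.4% of all genes were lower and 21.7% higher. Without the mock-treated library of experiment 1, 21 members were lower at 20 nM and 14 at 50 nM, against 18.7 and 31.4% of all genes. Without that of experiment 2 none was at 20 nM and 1 was at 50 nM, against 11.1 and 23.6% of all genes. The 20 nM count was 0 to 4 without the 10 or 20 nM library of either experiment, with 2 higher without the 20 nM library of experiment 1. The 50 nM count was 2 to 4 without the 1, 5, 10, 20 or 50 nM library of either experiment. The count of 3 higher genes at 50 nM was 1 without the 0 or 5 nM library of either experiment and 0 without the 50 nM library of experiment 1.

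All libraries at 20 nM and above (n = 7) were also set against those at 0.25 nM and under (n = 4). Only the 0 nM library of experiment 1 is in the second group, and the rest of it is from experiment 2. Averages, ranges and overlaps given for these groups pool both experiments, while the fitted changes have experiment as a block. In this comparison 3 of the 132 genes were lower and none was higher, where 25.9% of 6002 genes were lower and 9.1% higher. The median log2 change was −0.07 over the family and −0.10 over all genes tested. An unadjusted p under 0.05 was found for 12 members (9.09%), against 47.4% of all genes. No member and 4.4% of all genes were lower by at least 2-fold, and no member and 2.28% higher. In simulated data this fit recovered 12 of 67 genes changed 1.2-fold. That simulation left 5343 of 5543 genes unchanged, unlike the data, so its recovery is not the power for this family. The few calls do not show that small changes of the family were absent.

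The 3 genes were *RPL18B*, *RPS22B* and *RPS14B*, each the weaker copy of its pair. *RPL18B* had 117.6 to 161.9 RPKM (median 141.3) at 20 nM and above, against 161.2, 205.3, 183.9 and 177.3 RPKM in the libraries at 0, 0, 0.05 and 0.25 nM (log2 change −0.32, standard error 0.10, limma adjusted p = 0.0263). Its ranges met only at their ends. *RPS22B* had 201.5 to 249.0 RPKM (median 223.2), against 241.0, 283.3, 260.8 and 352.9 RPKM (−0.30 ± 0.10, SE; limma adjusted p = 0.0406). *RPS14B* had 114.6 to 138.3 RPKM (median 126.3), against 141.6, 152.7, 142.4 and 138.2 RPKM (−0.17 ± 0.06, SE; limma adjusted p = 0.0423). The groups of *RPS22B* overlapped slightly, and those of *RPS14B* met at their ends. The count fell to 0 without the mock-treated library of experiment 2. It fell to 1 without the 0 or 100 nM library of experiment 1 or the 0.05, 50 or 500 nM library of experiment 2. The count of higher genes was 1 without the 20 nM library of experiment 1 or the 500 nM library of experiment 2. Centring on the median gave none lower and 1 higher, where 16.7% of all genes were lower and 17.0% higher. A fit of all 18 libraries gave 15 lower and 1 higher, where 32.8% of all genes were lower and 13.6% higher.

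*RPS22B* also hosts a small nucleolar RNA, *SNR44*, in an intron of the same strand, and *SNR39* and *SNR59* lie in introns of *RPL7A* and *RPL7B*. Small nucleolar RNAs guide modifications of ribosomal RNA. *SNR44* averaged 1057 reads per library where the whole *RPS22B* gene averaged 2434, and its level was highest, at 934 RPKM, in the 0.25 nM library, where *RPS22B* was also highest. With its reads subtracted, in an alternative added after the data had been seen, the change of *RPS22B* at 20 nM and above was −0.26 (limma adjusted p = 0.137) and the call was lost. At 500 nM the subtraction gave −0.65 (limma adjusted p = 1.4e-04), against −0.30 with those reads included. *SNR39* averaged 121 reads beside 7717 for *RPL7A*, and *SNR59* 35.2 beside 1302 for *RPL7B*, and the 500 nM changes of these hosts were −0.39 and −0.42 after subtraction.

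No gene passed the test for a difference between the experiments. The change at 20, 50 and 500 nM was compared between experiments gene by gene, and 0 of the 132 genes and 0 of 5994 genes overall (0%) passed in limma. At an unadjusted p under 0.05 there were 1 member and 129 genes (2.15% of all). The change was lower in experiment 2 for 120 of the 132 members. The median difference was −0.11 over the members and −0.07 over all genes, so most of all genes lay below 0 too. All members share the same mock-treated libraries, so the count of 120 does not stand for separate results. Each experiment has a single mock-treated library in this test, so the lack of calls does not show that the changes were equal.

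The next comparison asked whether the copies of a pair changed unequally. The ratio of A to B, 20 nM and above against 0.25 nM and under, changed in 17 of the 57 ribosomal pairs (limma on the log2 ratio, Benjamini-Hochberg over 76 pairs of names ending in A and B). Of the ribosomal pairs 29.8% passed, and over all 76 pairs 28.9% did. The ribosomal pairs make up most of the 76, so the second share is no separate background. Of the other 19 pairs 5 passed. The other 19 pairs include names of unrelated reading frames. In 11 ribosomal pairs the ratio moved towards A, as in 19.7% of all pairs, and in 6 towards B, as in 9.21%. Without the mock-treated library of experiment 1 11 pairs passed, with 0 nM alone as the low group 5, and without the experiment as a block 10. Of the 44 pairs in which both copies have at least 80% unique windows, 15 passed.

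In *RPS10*, a pair of the small subunit, the log2 ratio of A to B was 1.08, 1.07, 0.99, 1.01, 0.91, 0.99, 0.89, 0.90 and 0.86 from 0 to 500 nM in experiment 1. In experiment 2 it was 1.21, 1.19, 1.12, 1.12, 1.09, 0.99, 0.94, 0.91 and 0.85 from 0 to 500 nM. Libraries at 20 nM and above averaged 0.91 ± 0.05 (SD, n = 7) and those at 0.25 nM and under 1.15 ± 0.06 (SD, n = 4), with no overlap (change −0.24, standard error 0.04, limma adjusted p = 0.00382). At 500 nM *RPS10A*, of the small subunit, changed by −0.38 and *RPS10B* by −0.09, the second not passing the test. Both copies have only unique windows.

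*RPS28* moved the same way, towards B. The protein sits near the mRNA exit of the small subunit, and in yeast *RPS28B* mRNA is known to be destabilized by its own product together with Edc3. The log2 ratio lay between 1.78 and 2.11 (median 1.85) at 20 nM and above, against 2.35, 2.26, 2.44 and 2.01 at 0, 0, 0.05 and 0.25 nM (change −0.42, standard error 0.09, limma adjusted p = 0.00862). The groups overlapped through the 0.25 nM library. The 1 nM library of experiment 2, at 1.86, was also low, while that of experiment 1 was at 2.35. The coding sequences of both copies (R64 build, 204 bases, from RefSeq) differ at 24 bases, an identity of 88.2%, which leaves all 50-base windows unique. They are shown with the differing bases in capitals, as the ground for telling the copies apart.
RPS28A (chrXV:648804-649007, minus strand): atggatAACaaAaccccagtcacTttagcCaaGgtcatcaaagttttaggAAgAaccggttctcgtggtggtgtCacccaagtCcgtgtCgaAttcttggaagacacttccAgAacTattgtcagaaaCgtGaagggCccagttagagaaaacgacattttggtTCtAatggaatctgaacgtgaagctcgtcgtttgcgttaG
RPS28B (chrXII:673131-673334, plus strand): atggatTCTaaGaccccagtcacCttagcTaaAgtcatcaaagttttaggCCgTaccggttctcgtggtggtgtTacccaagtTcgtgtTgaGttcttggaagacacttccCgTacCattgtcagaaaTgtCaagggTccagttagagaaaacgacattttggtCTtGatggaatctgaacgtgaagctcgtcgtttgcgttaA

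*RPS26*, *RPL18* and *RPL1* moved towards A. *RPS26*, whose protein also lies near the mRNA exit, had log2 ratios of 1.08 to 1.49 (median 1.25) at 20 nM and above, against 0.97, 1.01, 0.97 and 1.09 at 0, 0, 0.05 and 0.25 nM (change 0.29, standard error 0.07, limma adjusted p = 0.0167). Its ratio was highest at 500 nM in each experiment, 1.40 and 1.49. *RPL18* had 2.63 to 2.96 (median 2.82), against 2.54, 2.45, 2.55 and 2.62, without overlap (0.28 ± 0.06, SE; limma adjusted p = 0.00813). *RPL1* had −0.10 to 0.13 (median 0.01), against −0.08, −0.49, −0.19 and −0.25, with a small overlap (0.24 ± 0.07, SE; limma adjusted p = 0.0231). Its copies have 19.0% unique windows each.

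*RPL40* had the largest change and the least certain. Its log2 ratio lay between 5.50 and 6.66 (median 5.97) at 20 nM and above, against 5.66, 4.99, 5.63 and 5.69 at 0, 0, 0.05 and 0.25 nM (change 0.60, standard error 0.20, limma adjusted p = 0.0467). At 500 nM the experiments differed, with 5.50 in experiment 1 and 6.66 in experiment 2. *RPL40B* had 20.2 and 9.69 RPKM there, against 18.8 and 33.9 RPKM at 0 nM, from as few as 74 reads. The call was lost without any of 9 of the 11 libraries, the exceptions being the 0 nM and the 500 nM library of experiment 1; without the mock-treated library of experiment 2 the change was 0.44.

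The other called pairs changed by less than 0.20 on the log2 scale. *RPL8*, *RPL19*, *RPS30*, *RPS14*, *RPS18*, *RPL31* and *RPL27* moved towards A, from 0.19 for *RPL8* to 0.09 for *RPL27*. *RPL36*, *RPL16* and *RPS6* moved towards B, from −0.18 for *RPL36* to −0.17 for *RPS6*, the last with 27.3% unique windows. In *RPL19*, *RPS18*, *RPL31*, *RPS6* and *RPL16* the libraries at 20 nM and above did not overlap those at 0.25 nM and under. In *RPL19* the log2 ratio averaged −0.59 ± 0.05 (SD, n = 7) at 20 nM and above and −0.77 ± 0.04 (SD, n = 4) at 0.25 nM and under. In *RPL16* it averaged −0.87 ± 0.12 (SD, n = 7) at 20 nM and above and −0.64 ± 0.04 (SD, n = 4) at 0.25 nM and under. Both are pairs in which the B copy was the higher, so the copies drew closer in *RPL19* and further apart in *RPL16*.

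**Figure D4:**
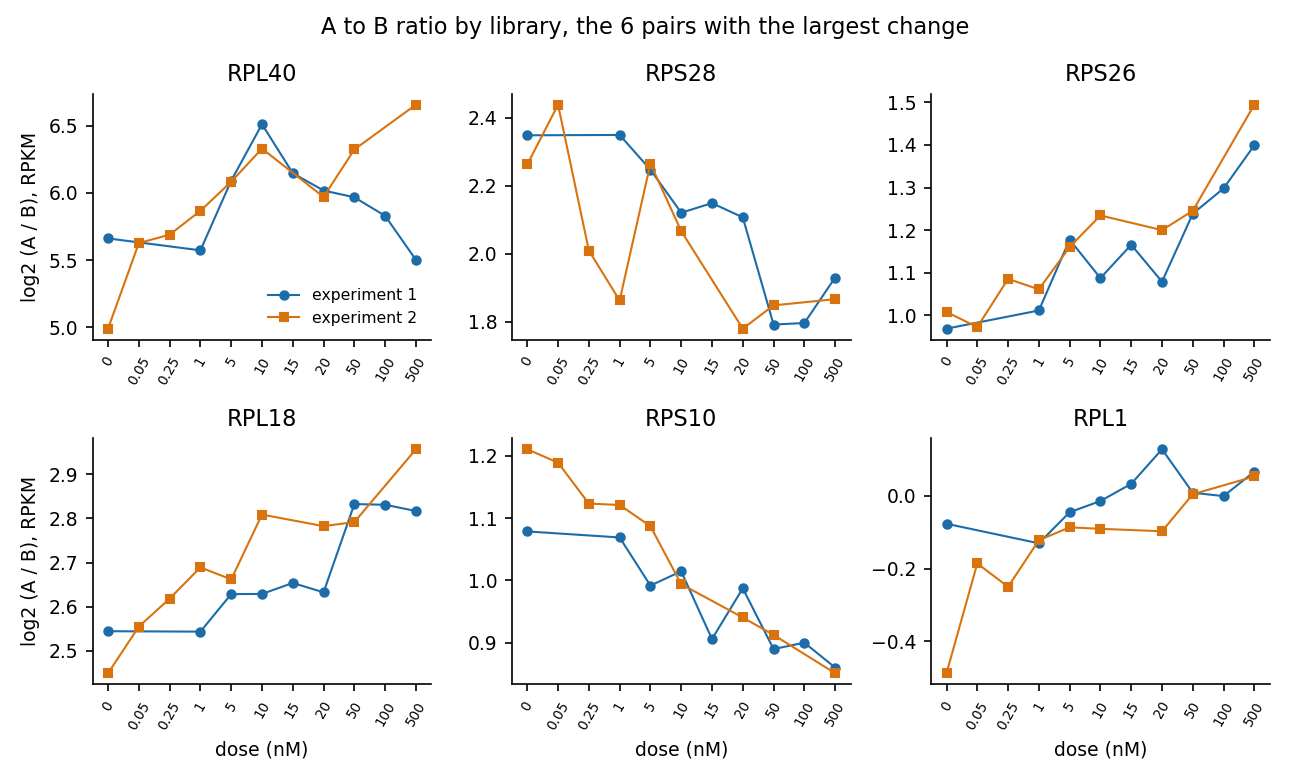
log2 ratio of A to B in RPKM against dose (nM), 1 point per library, for the 6 pairs whose ratio changed most at 20 nM and above. *RPS10* and *RPS28* run downwards with dose and *RPS26*, *RPL18* and *RPL1* upwards, and the *RPL40* curves of the experiments part at 500 nM, at 5.50 and 6.66.

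At 500 nM the weaker copy had the lower log2 change in 38 of the 57 pairs. The median change was −0.28 over weaker copies and −0.24 over stronger copies, and the median difference within pairs was −0.06. Among the 44 pairs with at least 80% unique windows the count was 30 and the median difference −0.08. *RPS22B* is not among the 38, but with the *SNR44* reads subtracted its change (−0.65) lay below that of *RPS22A* (−0.34). Among 9 pairs that differed at least 4-fold per unique window it was 6, with a median difference of −0.05. These counts were made after the values had been seen and were not tested.

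**Figure D5:**
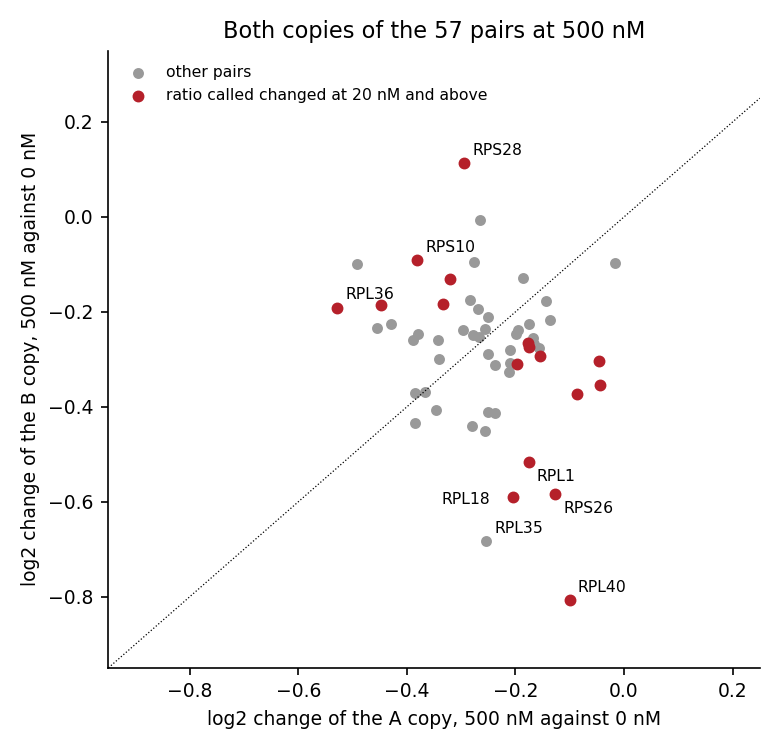
log2 change at 500 nM against 0 nM of the B copy against that of the A copy, 1 point for each of the 57 pairs, with pairs whose ratio was called changed at 20 nM and above in red. Most points lie below 0 on both axes, while *RPS28* lies above 0 for its B copy (0.11) and *RPL40* lies far below the dotted line of equal change (−0.81 for its B copy).

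The promoters of the family were searched for the letters of known factors. In the 300 bases before the coding start (R64), ACCCNNACA on either strand was found for 21 of 132 members (15.9%) and for 3.12% of 5987 genes. In 500 bases it was found for 53 members (40.2%) and 5.48% of 5986 genes. The pheromone response element of Ste12, TGAAACA, was in 6.06% of the members' 300-base windows and 7.22% of all. The Abf1 letters, CGT and TGA set 6 bases apart, for a general regulatory factor, were in 12.1% and 15.0%. A first search with CGT and TGA set 7 bases apart had given 7.58% and 7.63%. The letters AACCCTAA of Tbf1 were in 0.758% and 0.885%. The motifs did not overlap in the promoters shown. Of the 21 members with Rap1 letters within 300 bases 18 were lower at 500 nM (median log2 change −0.31), and of the 111 others 88 were (−0.26).

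The promoters of the *RPS28* and *RPL40* pairs are shown because both ratios were called changed at 20 nM and above. The call for *RPL40* was the least certain, and its ratio in experiment 1 was 5.66 at 0 nM and 5.50 at 500 nM. They cover 200 bases that end 100 bases before the coding start, from RefSeq in the R64 build, with Rap1 or Abf1 letters in capitals.
RPS28A (chrXV:649108-649307, minus strand): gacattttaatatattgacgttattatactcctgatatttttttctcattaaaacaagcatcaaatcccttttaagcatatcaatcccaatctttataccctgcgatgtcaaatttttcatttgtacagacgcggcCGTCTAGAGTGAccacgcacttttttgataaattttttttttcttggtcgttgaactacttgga
RPS28B (chrXII:672831-673030, plus strand): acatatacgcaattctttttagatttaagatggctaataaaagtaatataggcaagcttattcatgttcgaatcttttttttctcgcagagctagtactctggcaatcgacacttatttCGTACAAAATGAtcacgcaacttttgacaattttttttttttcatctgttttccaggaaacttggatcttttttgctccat
RPL40A (chrIX:68408-68607, plus strand): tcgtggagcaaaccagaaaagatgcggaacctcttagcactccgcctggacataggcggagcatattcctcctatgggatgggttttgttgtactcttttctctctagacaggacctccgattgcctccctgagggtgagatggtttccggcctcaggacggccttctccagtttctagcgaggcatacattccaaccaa
RPL40B (chrXI:618851-619050, minus strand): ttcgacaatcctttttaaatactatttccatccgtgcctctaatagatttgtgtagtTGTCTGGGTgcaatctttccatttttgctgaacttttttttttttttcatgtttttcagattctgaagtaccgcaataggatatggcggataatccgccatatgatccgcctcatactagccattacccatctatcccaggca
Both *RPS28* promoters held 1 Abf1 match and no Rap1 match. *RPL40B* held 1 Rap1 match, read on the opposite strand, and *RPL40A* held neither.

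Other genes of the translation machinery were counted beside the family at 500 nM, where 36.9% of all genes tested were lower and 22.5% higher. Of the stalk genes *RPP0*, *RPP1A*, *RPP1B*, *RPP2A* and *RPP2B* and *ASC1*, a protein of the small subunit, 5 of 6 were lower and none was higher (median log2 change −0.32). Of 9 genes of elongation factors 5 were lower and 1 was higher (−0.32), with *YEF3*, the fungal elongation factor 3, at −0.67. *TEF1*, *TEF2*, *EFT1* and *EFT2* among them have under 10% unique windows. Of 67 genes of mitochondrial ribosomal proteins 53 were lower and 2 higher (−0.40).

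The medians of the family's regulators and helpers lay further from 0 than that of the family. Of 13 regulators 7 were lower and 3 higher at 500 nM, with a median of −0.48. Over all genes tested at that dose, 36.9% were lower and 22.5% higher. *FHL1* (−0.93), *TOD6*, a repressor of ribosome biogenesis genes (−0.91), *RAP1* (−0.75) and *IFH1* (−0.70) fell, while *SCH9* (1.03), the repressor gene *STB3* (0.45) and *HMO1*, whose protein binds ribosomal protein promoters (0.25), rose. *SFP1* stood at 0.03. At 20 nM and above 6 of the 13 were lower, *FHL1* (−0.82), *TBF1* (−0.71), *REB1* (−0.63), *RAP1* (−0.63), *ABF1* (−0.51) and *IFH1* (−0.39), and *SCH9* (0.87) was higher. There 25.9% of all genes tested were lower and 9.1% higher. Of 11 genes listed as chaperones of ribosomal proteins 10 were lower and 1 was higher at 500 nM (median −0.64), with *SYO1*, a carrier of Rpl5 and Rpl11, at −1.05 and *PUF6* at −1.03. The gene that rose, *EDC2* (1.24), is known as an enhancer of mRNA decapping.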

How the data were processed

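RNA was depleted of ribosomal RNA and sequenced as strand-specific 50-base reads. The authors mapped the reads (with Bowtie 2 per the paper, Bowtie 0.12.2 and sacCer3 per the submitters' notes) and deposited RPKM for annotated genes, a table per experiment. Library totals were recovered from the RPKM steps. The tables repeat 151 IDs with identical values, each used once, and 42 members stand there under 2 names. R64 gave symbols and positions by systematic name (6048 of 7126 IDs matched). No columns were identical. The 0.05 nM label reads nm, which was taken to mean nM.

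limma 3.58.1 (R 4.3.3) was run on log2(RPKM + 1), which understates changes of low genes, after a filter at a mean of 1 RPKM. Experiment was a block, and p-values were adjusted by Benjamini-Hochberg over every gene tested. The threshold was an adjusted p under 0.05. Pairs were tested on the log2 ratio of A to B. Single doses were set against 0 nM in a model of the 18 libraries together. The experiment number in the labels pairs the libraries: deviations of same-numbered libraries correlated at 0.18 to 0.47 (mean 0.35, 21 pairs of doses).

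The fit was tested on simulated data with known changes, with the low and high doses grouped. It recovered 12 of 67 genes changed 1.2-fold, 52 of 67 changed 1.5-fold and 63 of 66 changed 2-fold. Among 5343 unchanged genes it called 6. Most changes of 1.2-fold were thus missed. Unique windows were counted within exons of R64 with Python 3.11.15. At this depth 3 reads on 1000 bases are 0.180 to 0.616 RPKM, which covers counting error only.

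Genes named by rule were the members called at 20 nM and above (up to 10 each way), the 6 called pairs with the largest change, the 6 most unequal pairs, the 5 highest and 5 lowest members, the ubiquitin fusions and the hosts of small nucleolar RNAs. A few items are not reported here. Others were named after their values were seen. The members and lists were chosen with earlier results of these data known. Pseudocounts, filters, scalings, groups of doses and the leaving out of each library were varied.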

Additional observations from a re-analysis of the deposited data

Results flagged for a closer look

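In 1 of 54 groups checked for a library far from the others (shares, named genes and named pairs at 20 nM and above and at 0.25 nM and under), a value stood apart: the log2 ratio of *RPL40A* to *RPL40B* was 4.99 in the mock-treated library of experiment 2 and 5.63 to 5.69 in the other libraries at 0.25 nM and under. Chance gives about 1 such value in 20 groups. *RPL40B* had 33.9 RPKM in that library, its highest value.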

How the results depend on the processing

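At 20 nM and above, 3 members were lower and 0 higher. The lower count was 0 with libraries centred on their median, 1 with rescaling to reads on protein-coding genes, 0 with 0 nM as the low group, 1 with 500 nM left out, 15 in the fit of all 18 libraries and 0 with a 2-fold threshold. Over all genes 16.7, 22.3, 15.3, 22.9, 32.8 and 4.4% were lower in these fits, in the same order. The higher count was 1 under centring, quantile normalization, rescaling to protein-coding reads, without 500 nM and in the fit of all 18. At 1 nM 1, 2 and 1 members were lower under centring, quantile normalization and rescaling to protein-coding reads. At 20 nM the lower count of 7 was 0 under centring, 3 under quantile normalization, 4 under rescaling and 0 at 2-fold, and at 50 nM it was 0 under centring, 4 under rescaling and 0 at 2-fold. Under centring 5, 3 and 43 members were higher at 10, 20 and 50 nM. At 50 nM 5 were higher under rescaling and 0 at 2-fold. At 500 nM 0 of the 106 passed a 2-fold threshold, and the count was within 1.5 times of 106 under both other pseudocounts, both other filters, centring, quantile normalization and rescaling. With 0 nM as the low group 5 pairs passed instead of 17. With pairs of unnamed reading frames left out, an alternative added after the data had been seen, 18 ribosomal pairs passed. The cause of these changes was not tested.

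Without the experiment as a replicate block, 0, 1 and 48 members were lower at 20, 50 and 500 nM, 0 were higher at 50 nM and 10 pairs passed. Over all genes 9.72, 21.7 and 27.8% were lower at these doses in that fit, and 6.44% were higher at 50 nM. At 20 nM and above the count stayed at 3 lower and 0 higher.

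Leaving out 1 library at a time gave 0 to 4 lower and 0 to 1 higher members at 20 nM and above. Against 0 nM it gave 0 to 17, 0 to 1, 0 to 5, 0 to 21, 1 to 14 and 70 to 108 lower members at 1, 5, 10, 20, 50 and 500 nM. For higher members it gave 0 at 1, 5, 10 and 500 nM, 0 to 2 at 20 nM and 0 to 3 at 50 nM. It gave 11 to 20 pairs, and 0 members that differed between experiments; the 0 nM libraries could not be left out of that test. Leaving out a library of a dose used in both experiments leaves 1 there, which is assumed to vary like the rest.

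The mean share of mapped reads on the members was 10.0 to 10.5% at 20 nM and above, 10.8 to 11.4% at 0.25 nM and under, 8.92 to 9.58% at 500 nM and 10.3 to 12.1% at 0 nM on leaving out 1 library. As a share of reads on protein-coding genes it was 13.8% at 20 nM and above, 14.8% at 0.25 nM and under, 12.5% at 500 nM and 14.8% at 0 nM. For members without introns it was 4.52, 5.00, 4.09 and 5.02% of mapped reads. Genes with few reads or few unique windows, *RPL40B* and the *RPL41*, *RPL1* and *RPL35* pairs among them, carry the least certain values.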
